A study of Homo sapiens with 6 samples.

Results

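The MYC, MAX and MXD network was followed through 10 genes, taken by name from the deposited expression tables: MYC, MYCN, MYCL, MAX, MXD1, MXD3, MXD4, MXI1, MNT and MLX. They are 10 of the 58735 genes listed, and 8 of them reached a mean of at least 1 FPKM (fragments per kilobase of gene, scaled to library size) and entered the test across 13365 genes. The cells were SKOV3, an established human ovarian carcinoma line, treated with siHJURP, a small interfering RNA against HJURP (the chaperone that deposits the centromeric histone CENPA), or with a negative control siRNA (NC). RNA was taken 24 h later, and each group had 3 libraries. No other allele or agent was named for either group, and the design text names both biological and experimental triplicates without saying which of these the libraries are, so p-values here reflect no more than the spread among libraries, which could be technical.

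The network turns on proteins with a shared basic helix-loop-helix leucine zipper, a domain that binds DNA only as a pair. MYC, MYCN and MYCL pair with MAX on E-box sequences and raise transcription of genes for growth, ribosomes and metabolism. The MXD proteins, MXI1 and MNT pair with MAX on the same sequences and recruit SIN3 corepressors with histone deacetylases. MLX is a second hub that pairs with MXD1, MXD4, MNT and the glucose-sensing factors MLXIP and MLXIPL. MYC is amplified or highly expressed in many ovarian carcinomas.

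The libraries held 17116487 to 18027065 reads in genes. HJURP itself had 29.23, 29.02 and 29.99 FPKM in NC replicates 1, 2 and 3 and 8.66, 8.64 and 8.65 in siHJURP replicates 1, 2 and 3, which was 70.6% lower (limma adjusted p = 1.41e-06). Of 10 markers of the line, 2 were under 1 FPKM in every library (MUC16 and EPCAM), while ERBB2, PAX8 and KRT8 were well expressed; all 12 markers of other cell types were under 1 FPKM in every library. The siHJURP libraries 1 and 3 stood apart in interferon-stimulated genes: the summed level of 20 such genes was 178.7 to 202.1 FPKM in NC, and 683.2, 191.4 and 938.8 FPKM in siHJURP replicates 1, 2 and 3. Results are therefore also given for siHJURP replicate 2 against NC.

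The sequence shared by the network's targets is the E-box CACGTG, which reads the same on both strands. In RefSeq promoter windows (GRCh38.p14, 250 bases before to 50 after each start site), the 9 network genes other than MYC had a window, and 3 of these 9 held a CACGTG: MXD4, MNT and MLX. By comparison, 8.77% of 27305 genes with a window held one, as did 12.6% of the 9047 tested genes with a window. MXD4 and MNT were the members that rose and MLX was a member that fell, while MAX and MXD1, which also fell, held no CACGTG. The 3 windows are shown because they hold the motif. Each is cut to the part that lies before the outermost annotated start of the gene, within 60 bases of the motif. Capitals mark the CACGTG, and each run is written 5′ to 3′ on the strand of the gene.
MXD4, chr4:2262295-2262359, minus strand: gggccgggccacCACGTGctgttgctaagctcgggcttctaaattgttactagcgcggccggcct
MNT, chr17:2401188-2401310, minus strand: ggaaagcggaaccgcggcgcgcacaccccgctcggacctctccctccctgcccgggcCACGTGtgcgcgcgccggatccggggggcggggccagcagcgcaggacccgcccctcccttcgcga
MLX, chr17:42566990-42567067, plus strand: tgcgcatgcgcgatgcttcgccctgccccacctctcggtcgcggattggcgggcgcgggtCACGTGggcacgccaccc

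Of the 8 tested members, 4 were lower after HJURP silencing (MYC, MAX, MXD1 and MLX), 2 were higher (MXD4 and MNT) and 2 did not pass the test (MXI1 and MXD3). Among all tested genes, 20.3% were lower and 17.6% higher by the same rule, which is an adjusted p under 0.05 in limma's moderated test on log2(FPKM + 1). Lower genes were 53.5% of all called genes here, 40.5% after rescaling to TPM and 41.5% after scaling to total reads. The values of the 2 groups did not overlap for 6 of the 8 members, the same 6, against 52.2% of all tested genes (26.8% lower and 25.4% higher). The changes were modest, the largest being 30.4% lower for MXD1 and 36.3% higher for MNT in mean FPKM. The count of members called higher was 0 without NC replicate 1 or 3 or siHJURP replicate 3, 1 without siHJURP replicate 1 or 2 and 3 without NC replicate 2, and the count called lower was 2 without NC replicate 1 or siHJURP replicate 3. With no filter on low values, only MYC and MAX among the members passed, and MXD1, MXD4, MNT and MLX had limma adjusted p = 0.0785, 0.0934, 0.0664 and 0.0518.

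**Figure D1:**
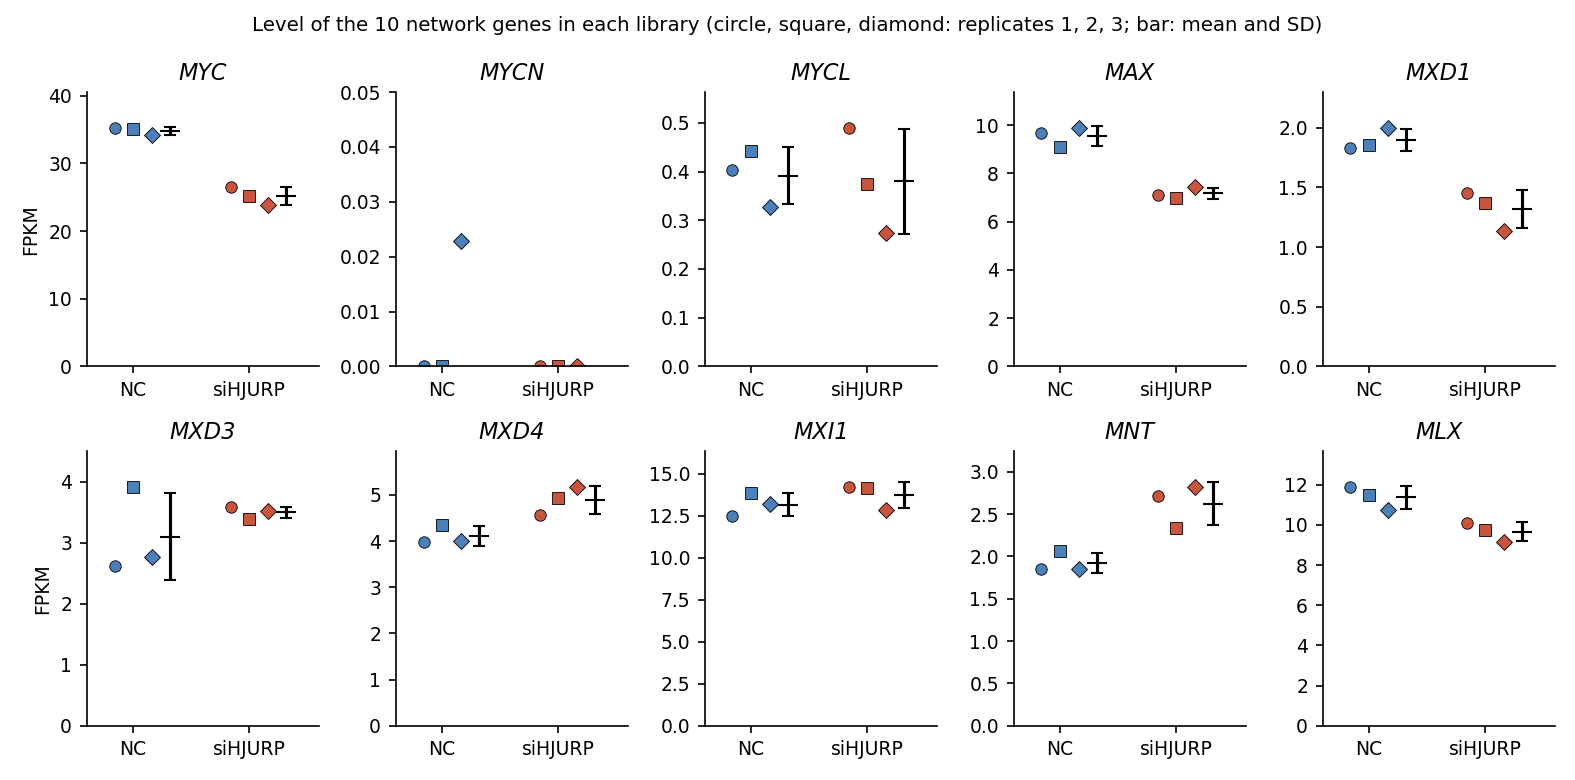
FPKM of the 10 network genes (vertical axes, each from 0) in the NC and siHJURP libraries, with a point for each replicate and the mean and SD beside them, except for MYCN, which had 1 read in all. MYC, MAX, MXD1 and MLX are lower in each siHJURP library than in every NC library, and MXD4 and MNT are higher.

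MYC was the most abundant network transcript in every library and the member with the lowest adjusted p. MYC (ENSG00000136997, chromosome 8, 127735434 to 127741434, plus strand, hg38) had 35.3, 35.1 and 34.2 FPKM in NC replicates 1, 2 and 3, and 26.5, 25.2 and 23.9 in siHJURP replicates 1, 2 and 3. Each siHJURP library was below the lowest NC library, by more than the spread within either group. The mean fell from 34.8 ± 0.59 to 25.2 ± 1.3 FPKM (SD, n = 3 per group here and below), which was 27.7% lower (log2 fold change -0.45, SE 0.045, limma adjusted p = 0.000451). These values rest on 1290 to 1832 reads per library, and no other annotated exon overlaps those of MYC. In siHJURP replicate 2 alone against NC the log2 fold change was -0.45, where 1 library gives no spread for siHJURP.

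The other MYC genes contributed little. MYCL, a paralogue first found amplified in lung cancer, had 0.40, 0.44 and 0.33 FPKM in NC and 0.49, 0.38 and 0.27 in siHJURP, from 25 to 45 reads per library. Its groups overlapped, and an exact two-sided permutation test gave p = 0.9, where 0.1 is the smallest that 3 against 3 allows. MYCN, the paralogue amplified in neuroblastoma, had 1 read in NC replicate 3 and 0 in the other 5 libraries. A count of 0 allows up to 3 reads, or 0.0626 to 0.0673 FPKM in those 5 libraries, for counting error only.

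MAX, the obligate partner of MYC and of most antagonists, was lower alongside MYC. MAX (ENSG00000125952, chromosome 14, 65006174 to 65102695, minus strand) had 9.68, 9.09 and 9.89 FPKM in NC and 7.12, 6.98 and 7.42 in siHJURP. The 2 groups were well apart, with the lowest NC library above the highest siHJURP library. The mean fell from 9.55 ± 0.42 to 7.17 ± 0.23 FPKM, 24.9% lower (log2 -0.37, SE 0.047, limma adjusted p = 0.0012). In siHJURP replicate 2 alone, again without a spread for siHJURP, the log2 fold change was -0.40. The quotient of MYC over MAX was 3.65 ± 0.20 in NC and 3.52 ± 0.27 in siHJURP, with overlapping values. FNTB, a farnesyltransferase subunit encoded on the other strand of the same stretch, had 2.57 ± 0.24 FPKM in NC against 2.26 ± 0.33 after silencing, a difference that did not pass the test.

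The antagonists did not move one way. MXD1, which is known for its induction when myeloid and epithelial cells stop dividing and differentiate, was lower. It lies on chromosome 2 (69897688 to 69942945, plus strand) and had 1.83, 1.85 and 1.999 FPKM in NC and 1.45, 1.37 and 1.14 in siHJURP. All 3 siHJURP libraries were below the NC range, with the lowest in replicate 3. The mean fell from 1.89 ± 0.091 to 1.32 ± 0.16 FPKM, 30.4% lower, on 130 to 214 reads per library (log2 -0.32, SE 0.090, limma adjusted p = 0.0282). On this scale the pseudocount of 1 shrinks so low a gene, and the log2 fold change was -0.50 with a pseudocount of 0.1 and -0.53 in limma's voom on whole reads. The call was lost (limma adjusted p in parentheses, here and for the genes that follow) without NC replicate 1 (0.0613), 2 (0.0562) or 3 (0.0899), without siHJURP replicate 2 (0.0538) or 3 (0.079), and in siHJURP replicate 2 alone (0.187).

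MNT rose, the member with the largest increase. MNT, a widely expressed antagonist that occupies MAX in dividing and resting cells alike, lies on chromosome 17 (2384060 to 2401118, minus strand). It had 1.85, 2.06 and 1.86 FPKM in NC and 2.71, 2.34 and 2.82 in siHJURP. The siHJURP libraries were all above the NC range, and replicate 2 was the nearest to it. The mean rose from 1.92 ± 0.12 to 2.62 ± 0.25 FPKM, 1.36 times the NC level (log2 0.31, SE 0.080, limma adjusted p = 0.022), and it rests on 273 to 443 reads per library. The call was lost without NC replicate 1 (0.0629) or 3 (0.0648), without siHJURP replicate 1 (0.0754) or 3 (0.0757), and in siHJURP replicate 2 alone, where the log2 fold change was 0.19 (0.331).

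MXD4 also rose. It is an antagonist often expressed in differentiated tissue and lies on chromosome 4 (2247432 to 2262294, minus strand). It had 3.97, 4.36 and 3.99 FPKM in NC and 4.56, 4.93 and 5.17 in siHJURP. The groups did not overlap, although NC replicate 2 came close to siHJURP replicate 1. The mean rose from 4.11 ± 0.22 to 4.89 ± 0.31 FPKM, 1.19 times the NC level (log2 0.20, SE 0.061, limma adjusted p = 0.0351). The call was lost without NC replicate 1 (0.0968) or 3 (0.0989), without siHJURP replicate 2 (0.0857) or 3 (0.108), and in siHJURP replicate 2 alone (0.175).

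MXI1, also called MXD2, was the most abundant antagonist and did not pass the test. MXI1 (chromosome 10, 110207605 to 110287365, plus strand) had 12.5, 13.8 and 13.2 FPKM in NC and 14.2, 14.2 and 12.8 in siHJURP. The groups overlapped, and the log2 fold change was 0.06 with a 95% confidence interval from -0.08 to 0.19 (limma adjusted p = 0.467). The interval excludes a change as large as that of MYC or MAX in either direction. MXD3, an antagonist associated with cells in S phase, had 2.62, 3.91 and 2.76 FPKM in NC and 3.58, 3.39 and 3.51 in siHJURP. NC replicate 2 was above every siHJURP library while the other NC libraries were below them all. The log2 fold change was 0.15 with an interval from -0.13 to 0.42 (limma adjusted p = 0.362), and without NC replicate 2 it was 0.28 (0.0167).

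MXD3 (chromosome 5, 177301461 to 177312757, minus strand) shares more of its annotated exons with other genes than any other member does. Of its exonic bases, 40.4% are shared with RAB24 on the same strand or PRELID1 on the other. RAB24, a small GTPase, had 4.09 ± 0.34 FPKM in NC and 3.36 ± 0.091 in siHJURP. PRELID1, a mitochondrial lipid carrier, went from 46.5 ± 2.8 to 36.5 ± 1.2 FPKM. Strand-specific counting is not stated in the sources used here, so reads of genes on opposite strands cannot be told apart. The shared part was 18.1% for MLX, with PSMC3IP, and 12.2% for MNT, with the antisense gene AC006435.1, which had 0 FPKM in all 6 libraries. All 1065 exonic bases of AC006435.1 are shared with MNT. How reads on shared bases were counted is not stated, so this 0 does not show whether AC006435.1 is transcribed. The shared part was under 5% for the other members.

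MLX, the hub of the parallel branch, was lower. MLX (chromosome 17, 42567068 to 42573239, plus strand) had 11.9, 11.5 and 10.8 FPKM in NC and 10.1, 9.75 and 9.14 in siHJURP. The groups did not overlap, but the gap between them was smaller than the range within either. The mean fell from 11.4 ± 0.58 to 9.66 ± 0.48 FPKM, 15.1% lower (log2 -0.22, SE 0.054, limma adjusted p = 0.0188). PSMC3IP, a recombination factor whose 3′ end overlaps that of MLX, fell from 10.9 ± 0.54 to 8.06 ± 0.53 FPKM (log2 -0.39), and its part in the MLX value was not tested. The call was lost without NC replicate 1 (0.0602) or siHJURP replicate 3 (0.0593), after rescaling to TPM (0.0515), and in siHJURP replicate 2 alone (0.156).

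Of the other partners, MLXIP (MondoA), which carries MLX to glucose-responsive promoters, fell and MGA did not pass. MLXIP (chromosome 12) had 10.3, 8.89 and 9.07 FPKM in NC and 7.72, 7.50 and 8.09 in siHJURP, 17.4% lower in the mean (log2 -0.24, SE 0.061, limma adjusted p = 0.0184). Its groups did not overlap; its call was lost without siHJURP replicate 1 (0.0596) or 2 (0.0548), with no filter (0.0561), after rescaling to TPM (0.0651), and in siHJURP replicate 2 alone (0.118). MGA (chromosome 15), the scaffold that brings MAX into a Polycomb complex, had 7.73 ± 0.88 FPKM in NC and 7.98 ± 0.43 in siHJURP (log2 0.04, 95% confidence interval -0.15 to 0.24). MLXIPL (ChREBP), the liver-type partner of MLX, was at or under 0.0451 FPKM in every library.

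**Figure D2:**
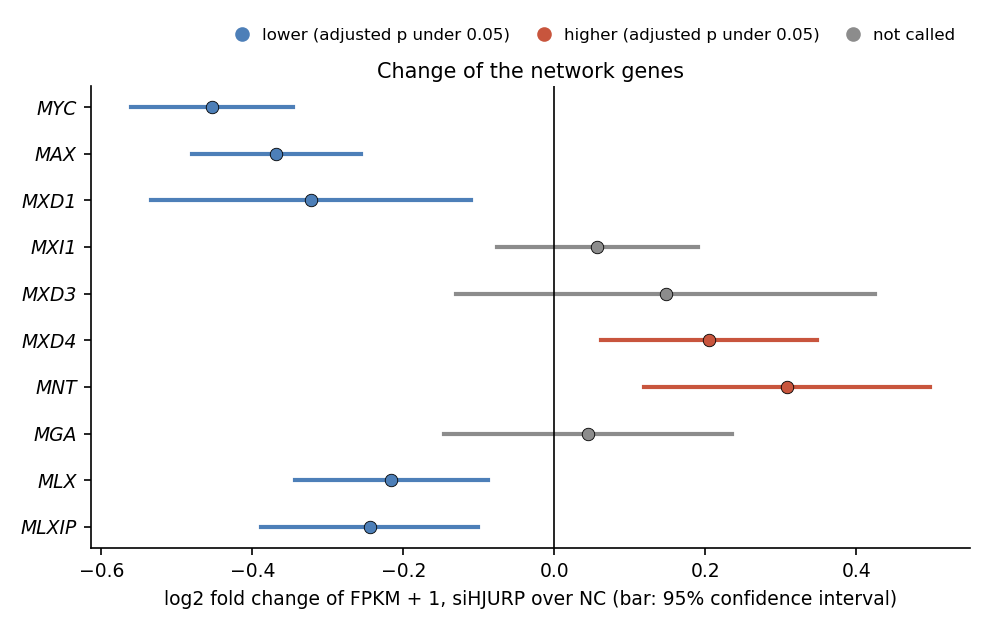
Log2 fold change of FPKM + 1, siHJURP over NC (horizontal axis), with 95% confidence intervals for the 8 tested members and for MGA and MLXIP. MYC, MAX, MXD1, MLX and MLXIP lie to the left of 0 with intervals that exclude it, MXD4 and MNT to the right, and the intervals of MXI1, MXD3 and MGA span 0.

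Per length, the order of the members by level was the same in both groups: MYC, MXI1, MLX, MAX, MXD4, MXD3, MNT, MXD1, MYCL and MYCN. In NC the neighbours MNT and MXD1 could not be ranked, at 1.92 and 1.89 FPKM with overlapping libraries, whereas in siHJURP MNT was above MXD1 in each library. The quotient of MNT over MXD1 was 1.01, 1.11 and 0.93 in NC and 1.87, 1.71 and 2.48 in siHJURP. All other neighbours in the order were apart in each group. MXD3 shares 40.4% of its exonic bases with other genes, and what this does to its place was not tested.

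MYC made up a smaller share of the network's transcripts after silencing. As a share of the summed FPKM of the 10 genes, MYC was 44.1%, 42.7% and 43.3% in NC replicates 1, 2 and 3 and 37.5%, 36.8% and 36.1% in siHJURP replicates 1, 2 and 3. The summed level of the 5 antagonists (MXD1, MXD3, MXD4, MXI1 and MNT) was 22.7, 26.0 and 23.8 FPKM in NC and 26.5, 26.2 and 25.5 in siHJURP, with siHJURP replicate 3 below NC replicate 2. MYC over this sum was 1.55, 1.35 and 1.44 in NC and 1.00, 0.96 and 0.94 in siHJURP. By FPKM, MYC thus exceeded the antagonists together in each NC library and was about level with them in siHJURP. Whether the quotient lies above 1 depends on the division by listed length, 3001 bases for MYC and 4607 to 8728 for the antagonists. These quotients are taken within a library and do not move with scaling by a single factor per library, though quantile scaling can move them. They describe transcripts, not protein, and were given no test because they combine the members; MXI1 made up 50.4% to 55.4% of the antagonist sum throughout.

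**Figure D3:**
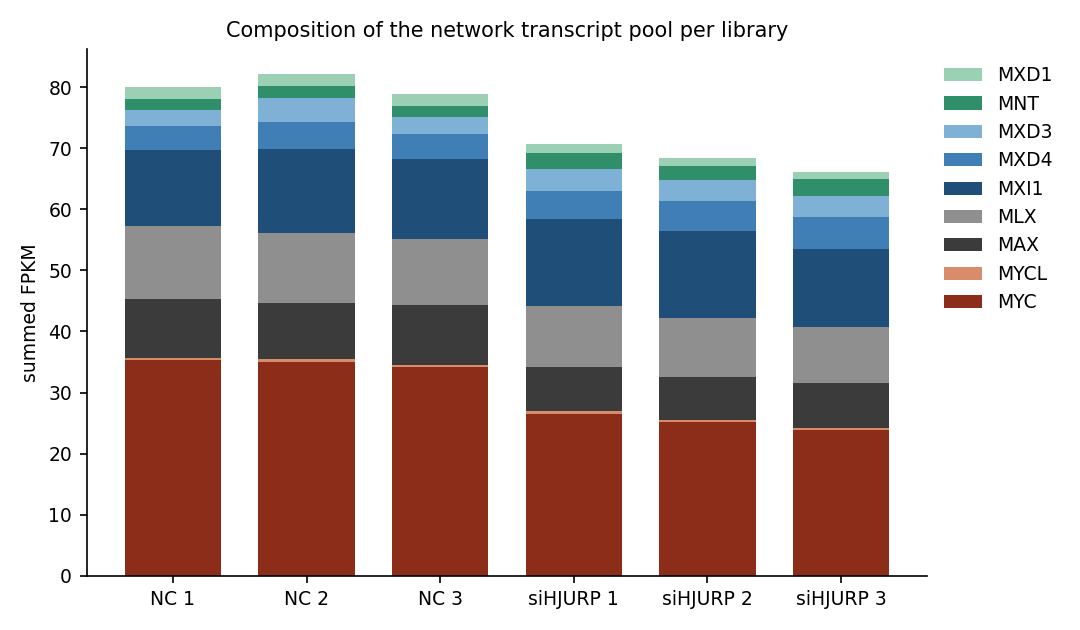
Summed FPKM (vertical axis) of the network genes in each of the 6 libraries, stacked by gene, with MYC at the bottom and the antagonists at the top; MYCN is too low to draw. The MYC segment shrinks from 34.2 to 35.3 FPKM in NC to 23.9 to 26.5 FPKM in siHJURP, while the antagonist segments together stay between 22.7 and 26.5 FPKM.

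Among listed MYC targets, more were called lower than higher. The lists here and below were chosen with earlier results of these data known. Their shares beside all tested genes are therefore descriptive only. Of 58 listed MYC targets of the nucleolus and growth, 55 were tested, of which 20 fell (36.4%, against 20.3% of all tested genes), 4 rose (7.27%, against 17.6%) and 31 did not pass; the median log2 fold change was -0.15, against -0.01 over all tested genes. MCM4, a subunit of the replicative helicase, fell from 45.9 ± 1.7 to 33.3 ± 1.1 FPKM (log2 -0.45). MRTO4, which helps assemble the large ribosomal subunit, fell from 48.0 ± 1.5 to 37.0 ± 2.0 FPKM (log2 -0.37), and NOP56, a core protein of box C/D particles, from 49.0 ± 0.15 to 40.4 ± 1.5 (log2 -0.27). Against this direction, NOLC1, a nucleolar phosphoprotein, rose from 13.8 ± 0.30 to 29.2 ± 1.1 FPKM (log2 1.03), and POLR1B, a subunit of RNA polymerase I, rose by 0.25 on the log2 scale. NPM1, an abundant nucleolar chaperone, had 333.2 ± 8.2 and 328.4 ± 20 FPKM, and CDK4 had 29.8 ± 1.8 and 30.8 ± 1.4, and neither passed. The higher count was 7 after rescaling to TPM and 8 with quantile scaling or total reads, and the lower count was 13 with no filter on low values. Under TPM, quantile scaling and total reads, 5299, 5152 and 5300 of all 13365 tested genes were called, 40.5%, 46.8% and 41.5% of them lower. With no filter, 3807 of 34991 genes were called, 55.8% of them lower. The excess of lower calls over all tested genes was not seen in siHJURP replicate 2 alone, a fit with 1 library in that group.

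Of 34 MYC targets of metabolism, translation and the cell cycle, 33 were tested, of which 16 fell (48.5%, against 20.3% of all tested genes) and 1 rose (3.03%, against 17.6%), while 16 missed the threshold; the median log2 fold change was -0.13. PKM, the pyruvate kinase of glycolysis, fell from 391.6 ± 8.0 to 260.9 ± 3.9 FPKM (log2 -0.58), and PTMA, the acidic nuclear protein prothymosin alpha, from 213.9 ± 14 to 137.1 ± 4.8 (log2 -0.64). RCC1, the exchange factor for the GTPase RAN, fell from 36.3 ± 0.61 to 25.5 ± 1.2 FPKM (log2 -0.50), and AMD1, an enzyme of polyamine synthesis, from 25.3 ± 0.21 to 19.2 ± 0.72 (log2 -0.39). TFRC, the transferrin receptor, was the 1 that rose (log2 0.16). The classical E-box targets ODC1, the first enzyme of polyamine synthesis, and NCL, the nucleolar protein nucleolin, did not pass, with log2 fold changes of -0.13 (limma adjusted p = 0.0523) and -0.04 (0.485). The counts were 9 lower and 5 higher after quantile scaling, 6 higher after rescaling to TPM and 5 higher with total reads. They were 2 higher with voom and 10 lower with no filter. Without siHJURP replicate 1 they were 10 lower and 0 higher, beside 3719 of all 13365 tested genes called, 55.7% of them lower. The lower count was also smaller in siHJURP replicate 2 alone, a fit with 1 library in that group, where fewer of all tested genes were called. The higher count was also 3 without NC replicate 2 and 0 without NC replicate 3. The calls over all tested genes under these scalings and with no filter are given above with the nucleolar targets.

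Genes that MYC is known to repress were lower too. Of 13 listed, 10 were tested; 8 of these fell (80%, against 20.3% of all tested genes) and 1 rose (10%, against 17.6%), and the median log2 fold change was -0.89. The p21 gene CDKN1A, an inhibitor of cyclin-dependent kinases, was at 7.75 ± 0.52 FPKM in NC and fell to 1.99 ± 0.20 (log2 -1.55), and GADD45A, a stress-induced growth arrest gene, from 71.2 ± 4.2 to 33.9 ± 1.1 (log2 -1.05). NDRG1, a differentiation and hypoxia-induced gene, fell from 24.5 ± 0.15 to 12.4 ± 0.48 FPKM (log2 -0.93). THBS1, a matrix glycoprotein that inhibits vessel growth, fell from 118.1 ± 5.8 to 54.2 ± 9.3 FPKM (log2 -1.12). DDIT3, a transcription factor of the stress response, was the 1 that rose (log2 0.24, limma adjusted p = 0.0436), and the list held 0 higher genes with no filter, without a trend, in siHJURP replicate 2 alone, without NC replicate 1 or 3 and without any 1 of the siHJURP replicates.

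Genes that the parallel MLX branch controls contained 4 that fell (57.1%, against 20.3% of all tested genes) and 0 that rose (against 17.6%) among 7 tested of 8 listed, with a median log2 fold change of -0.35. TXNIP, which binds thioredoxin and limits glucose uptake, had 129.1, 130.0 and 132.2 FPKM in NC and 72.7, 74.7 and 74.4 in siHJURP. The groups were far apart and each was tight, and the mean fell by 43.3% (log2 -0.81, SE 0.032, limma adjusted p = 1.71e-05). ARRDC4, a related arrestin-domain protein, had 5.59, 5.98 and 5.91 FPKM in NC and 3.60, 4.72 and 4.43 in siHJURP, 27.1% lower in the mean (log2 -0.39, limma adjusted p = 0.0117); in siHJURP replicate 2 alone its adjusted p was 0.0949. The hexokinase HK2 and the transcription factor KLF10 fell by 0.35 and 0.52 on the log2 scale. HK2 is also listed among the MYC targets of the nucleolus and growth and is counted there as fallen.

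TXNIP is the best-known target of MLX with MLXIP, and its promoter carries the type of element that such pairs bind, a carbohydrate response element of CACGNG, a spacer of 5 bases and CACGNG. On either strand, this pattern was in the windows of 20 of 27305 genes (0.0732%), TXNIP among them, and in none of the 9 network windows. The ARRDC4 window held a CACGTG. Both are shown for comparison, with the motif in capitals, up to 60 bases on each side and only the part before the outermost annotated start.
TXNIP, chr1:145996601-145996727, minus strand: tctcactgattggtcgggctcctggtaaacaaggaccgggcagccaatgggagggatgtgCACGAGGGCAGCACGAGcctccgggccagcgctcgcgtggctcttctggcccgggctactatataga
ARRDC4, chr15:97960453-97960558, plus strand: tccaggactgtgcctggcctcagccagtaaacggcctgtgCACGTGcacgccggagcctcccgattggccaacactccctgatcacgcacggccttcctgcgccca

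**Figure D4:**
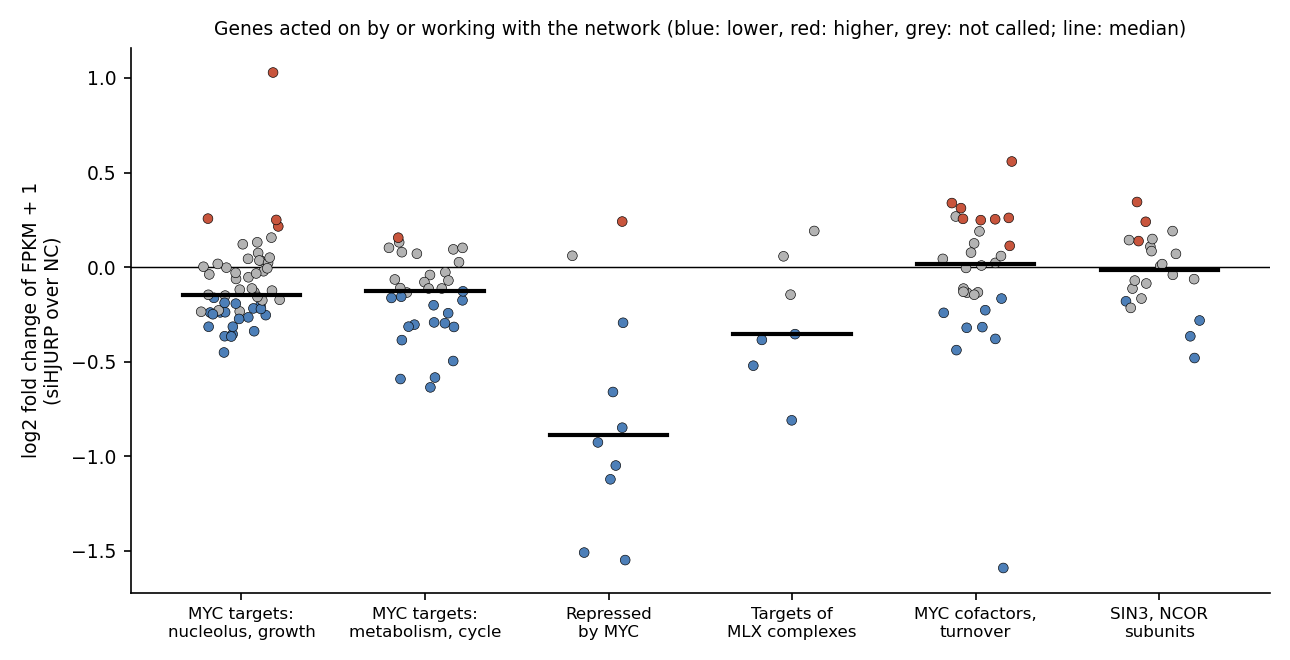
Log2 fold change of FPKM + 1, siHJURP over NC (vertical axis), of each tested gene in 6 lists around the network, coloured by the limma call, with a line at each median. Both lists of MYC targets sit slightly below 0 with medians of -0.15 and -0.13, the list of genes repressed by MYC has a median of -0.89, and the cofactor and corepressor lists centre on 0.

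Cofactors and turnover factors of MYC changed in both directions: of 30 tested, 8 fell and 8 rose (53.3% called, against 37.9% of all tested genes), the other 14 missed the threshold, and the median log2 fold change was 0.02. SKP2, the F-box protein that ubiquitinates MYC and the CDK inhibitor p27, had 20.2, 21.9 and 21.8 FPKM in NC and 6.22, 6.58 and 6.38 in siHJURP. Every siHJURP library was far below every NC library, and the mean was 70.0% lower (log2 -1.59, SE 0.046, limma adjusted p = 7.16e-06). FBXW7, the F-box protein that targets phosphorylated MYC, had 2.42 ± 0.043 and 2.47 ± 0.17 FPKM and did not pass (log2 0.02, 95% confidence interval -0.14 to 0.18). AURKA, a mitotic kinase, fell from 44.2 ± 1.5 to 32.4 ± 1.6 FPKM (log2 -0.44). CDK9, the kinase that releases paused RNA polymerase II, rose from 15.6 ± 1.3 to 23.4 ± 0.89 FPKM (log2 0.56), the acetyltransferase KAT2A rose by 0.34, PPP2R5A, a phosphatase subunit, by 0.31 and the helicase RUVBL2 by 0.26. ZBTB17 (MIZ1), the factor through which MYC represses genes, had a log2 fold change of 0.13 (limma adjusted p = 0.0582). In siHJURP replicate 2 alone, 4 were lower and 3 higher, and rescaling to TPM or no filter left 5 lower. The lower count was 5 without NC replicate 1 or 3 or siHJURP replicate 3, and 4 without siHJURP replicate 1.

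The SIN3 and NCOR corepressors, through which the antagonists act, were called about as often as all tested genes. Of 22 tested subunits, 4 fell and 3 rose (31.8% called, against 37.9% of all tested genes), and the median log2 fold change was -0.02. RBBP4, a histone-binding subunit, rose from 17.3 ± 0.59 to 22.3 ± 0.48 FPKM (log2 0.34), and ING1, a reader of methylated histone H3, fell from 4.82 ± 0.27 to 3.17 ± 0.20 (log2 -0.48). SIN3A, the scaffold, had 7.73 ± 0.084 and 8.41 ± 0.12 FPKM and did not pass (log2 0.11, limma adjusted p = 0.0595), although it did after rescaling to TPM, with quantile scaling, with total reads and with voom. In siHJURP replicate 2 alone 0 were lower and 1 higher.

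The tested genes whose values over the 6 libraries ran closest to those of MYC were CTGF, STEAP3 and DNAJB11, by the root-mean-square distance between log2(FPKM + 1) centred on each gene's mean (0.028, 0.033 and 0.035). CTGF, a matricellular growth factor, had 39.2 ± 0.44 FPKM in NC and 28.6 ± 0.64 in siHJURP. STEAP3, a metalloreductase, had 8.42 ± 0.31 and 5.90 ± 0.44, and DNAJB11, a chaperone of the endoplasmic reticulum, had 10.2 ± 0.24 and 7.18 ± 0.22. The libraries share their group difference, so genes that fell by a similar amount are near by construction.

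**Figure D5:**
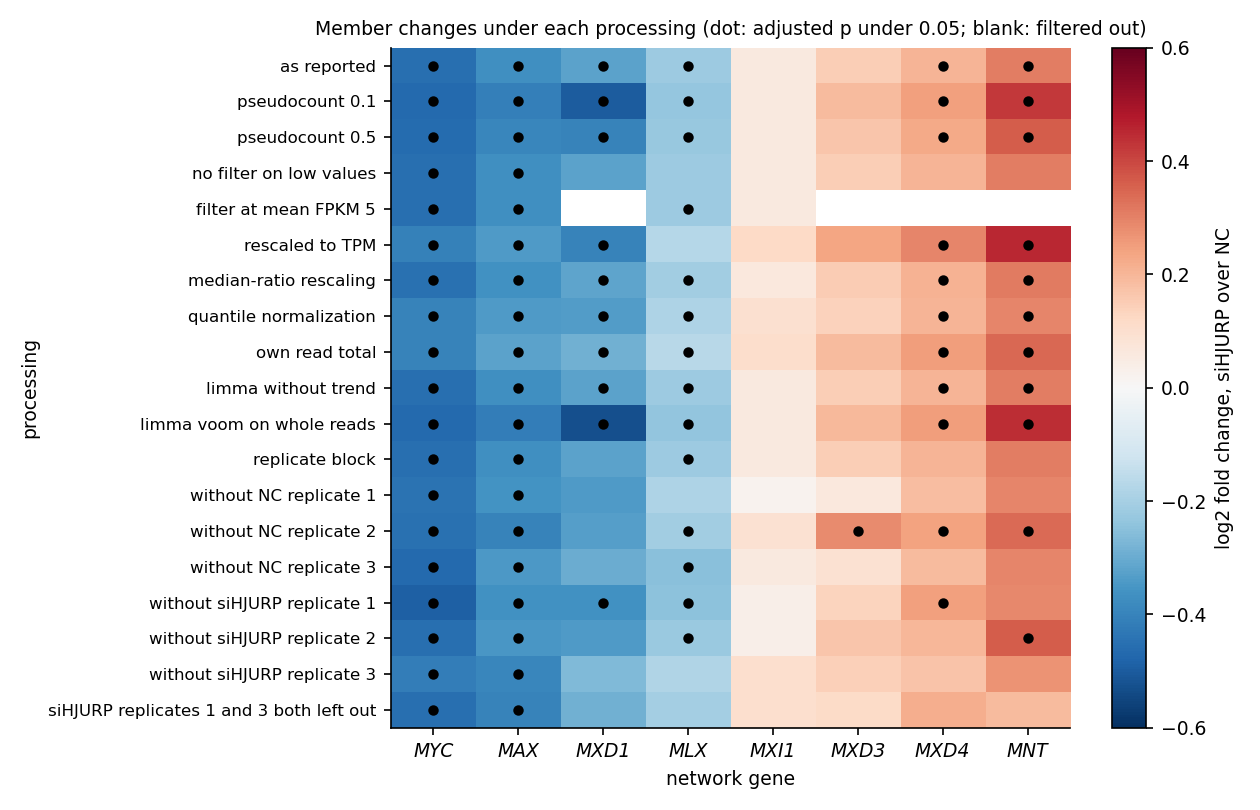
Log2 fold change of the 8 tested members (columns) under each processing (rows), with a dot where the limma adjusted p was under 0.05 and a blank where the filter removed the gene. MYC and MAX keep their dot in every row, whereas the dots of MXD1, MLX, MXD4 and MNT come and go and the colour of each column keeps its side.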

How the data were processed

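RNA-seq was run on 6 libraries, and for each the authors deposited a table of FPKM per gene. The submitters' processing notes name hg38, the aligner HISAT2 (2.0.5) and the counter featureCounts (1.5.0-p3); how libraries were scaled is not stated there. FPKM multiplied by the listed gene length and divided by the smallest such product above 0 in the library, taken as 1 read, gave whole reads for 100% of values in each library, within 0.01 reads. The library size behind the FPKM was 0.985 to 0.989 times the summed reads for NC and 1.02 to 1.03 times for siHJURP, which means the deposited values already carry a scaling factor.

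Genes with a mean of at least 1 FPKM were tested by limma 3.58.1 (R 4.3.3) on log2(FPKM + 1), using an intensity trend and Benjamini-Hochberg adjustment over all 13365 tested genes at 0.05; this scale understates changes of low genes. Every adjusted p-value comes from this limma fit unless an alternative is stated, and tests are two-sided. The fit was tested on simulated data with far fewer changed genes than were called here and no outlying libraries. That run therefore cannot show how the fit performs on these data. Members and lists were chosen with earlier results of these data known. Named genes were HJURP, the members, MGA, MLXIP, MLXIPL and up to 6 called genes per list by adjusted p. Also named were 12 fixed genes, tested genes overlapping a member, and the 3 nearest to MYC. A few further list members (POLR1B, TFRC, DDIT3, KAT2A, EIF4A1, NOP2 and IPO4) were named after their values were seen. A gene that the rule names is not reported here. Exons and overlaps are from GENCODE 29, with 58724 of 58735 genes at the same start and end; promoter windows are from RefSeq. Alternatives were 2 pseudocounts, 2 filters, 4 scalings, no trend, voom, a replicate block and libraries left out.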

Additional observations from a re-analysis of the deposited data

How the results depend on the processing

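MYC and MAX passed and kept their direction in all 18 alternatives, with log2 fold changes of -0.49 to -0.40 and -0.41 to -0.32; MXI1 passed in none and MXD3 in 1. MXD1, MNT and MXD4 passed in 9, 10 and 10 of 17 and MLX in 13 of 18, each with its direction kept. Reads per library were 130 to 214 for MXD1, 273 to 443 for MNT, 475 to 657 for MXD4 and 701 to 867 for MLX. MAX, which passed throughout, had 570 to 739. Why the calls of MXD1, MNT, MXD4 and MLX were less steady was not tested, and 3 libraries per group limit the precision. The members called higher and lower (2 and 4 as reported) were 0 and 2 with no filter, where 34991 genes were tested, 0 higher with the filter at 5 FPKM, which removed both, 0 higher with the replicate block, and 0 and 2 in siHJURP replicate 2 alone, a lone library assumed to vary like NC; leaving out 1 library gave 0 to 3 and 2 to 4. The genes changed were 1844 (716 higher, 1128 lower) in siHJURP replicate 2 alone, and 3719 to 4724 (1649 to 2192, and 2070 to 2532) with 1 library left out.

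For the nucleolar MYC targets (4 higher, 20 lower), the higher count was 7 under TPM, 8 with quantile scaling, 8 with total reads and 1 in siHJURP replicate 2 alone, and the lower count was 13 with no filter and 4 in that library; leaving out 1 library gave 4 to 5 and 14 to 20. For the metabolic targets (1 and 16), the higher count was 6 under TPM, 5 with quantile scaling, 5 with total reads, 2 with voom and 0 in siHJURP replicate 2 alone, and the lower count 10 with no filter, 9 with quantile scaling and 6 in that library; with 1 library left out the ranges were 0 to 3 and 10 to 15. For the genes repressed by MYC, the higher count of 1 was 0 with no filter, without a trend and in siHJURP replicate 2 alone, and 0 to 1 with 1 library left out. For the cofactors (8 and 8), the higher count was 3 in siHJURP replicate 2 alone and the lower count 5 with no filter, 5 under TPM and 4 in that library, with ranges of 6 to 9 and 4 to 9. For the corepressors (3 and 4), the higher count was 5 under TPM, 5 with total reads and 1 in siHJURP replicate 2 alone, where the lower count was 0, with ranges of 2 to 4 and 3 to 4. Where nothing else is said, the cause was not tested.

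Some small differences that had not passed turned sign. NCL had a log2 fold change of 0.0179 under TPM, 0.0698 with quantile scaling, 0.0123 with total reads and 0.0375 in siHJURP replicate 2 alone. NPM1 had 0.0379, 0.202 and 0.0323 under these scalings and 0.0709 in siHJURP replicate 2 alone, and -0.0687 to 0.0195 with 1 library left out; with quantile scaling it passed (limma adjusted p = 0.0121). MGA had -0.0256 in siHJURP replicate 2 alone. With 1 library left out, MGA ranged from -0.0367 to 0.109 and FBXW7 from -0.0036 to 0.0632. Same-numbered libraries correlated at 0.0025, -0.012 and 0.016 after removal of the group means. The labels do not say whether replicate numbers mark pairs, and correlations among so few libraries cannot settle it. With the replicate block 4527 genes were called instead of 5068, and MXD1 (0.0709), MXD4 (0.0566) and MNT (0.0595) missed the threshold.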

Other observations

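The E-box CACGTG was in the promoter windows of 26 of 48 nucleolar MYC targets with a window (54.2%) and 12 of 30 metabolic MYC targets (40.0%). It was in 2 of 9 genes repressed by MYC (22.2%), beside 12.6% of the 9047 tested genes with a window. Among tested genes with a window, it was in 12.7% of the 2016 that fell and 13.2% of the 1783 that rose. Of the tested nucleolar targets with the motif, 11 of 23 fell and 1 rose, with a median log2 fold change of -0.20, and of those without it 6 of 22 fell and 2 rose, with a median of -0.12. Of the metabolic targets, 7 of 12 with the motif and 8 of 18 without it fell. These counts describe the letters in the windows and carry no test.

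Some MYC targets were listed at levels far below those of their neighbours in the same lists. EIF4A1, a helicase of translation initiation, had 1.83 ± 0.074 FPKM in NC, NOP2, a ribosomal RNA methyltransferase, 0.29 ± 0.0079, and IPO4, a nuclear importer, 0.12 ± 0.045. In GENCODE 29, 48.6%, 54.4% and 70.1% of their exonic bases are shared with other annotated genes, read-through genes such as SENP3-EIF4A1 among them. How the authors counted reads on shared bases is not stated in the sources used here, and its part in these levels was not tested. The shared part was not worked out for the other listed targets. EIF4A1 is among the 16 metabolic MYC targets counted as fallen (log2 -0.30, limma adjusted p = 0.0349).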
